A study of Canis lupus familiaris with 12 samples.

Results

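Transcripts of 89 genes were higher without glucose in HU-HSA-2, a line from a canine blood vessel cancer (hemangiosarcoma), while their mean level in HU-HSA-3 was nearly the same with and without glucose. They were chosen from 30951 Ensembl gene identifiers by their measured values. The measure was D, the log2 ratio of mean TPM + 1 at 0 mM glucose to mean TPM + 1 at 25 mM glucose, computed in each cell line. TPM is a transcript level scaled for gene length and library total. A gene was taken if its mean TPM was at least 2 over the 6 libraries of each line, if D was at least 0.5 in HU-HSA-2 with all 3 libraries at 0 mM above all 3 at 25 mM, and if D in HU-HSA-3 lay between -0.2 and 0.2. Genes with RT-qPCR primers were to be left out, but 0 of them met the other criteria. The responses of these genes in both lines, and the difference between them, are therefore descriptions, and the window in HU-HSA-3 is not a test that a gene did not respond there.

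HU-HSA-2 came from the splenic hemangiosarcoma of 1 castrated male toy poodle, and HU-HSA-3 from that of 1 spayed female flat-coated retriever. Both were grown in DMEM with fetal bovine serum and antibiotics and then kept for 48 h with 0 or 25 mM glucose, and mRNA was sequenced from 3 libraries per group, 12 in all. No gene was edited and no drug was given in these groups. The sources do not say whether the 3 libraries of a group came from separate experiments, so p-values measure only the spread between these libraries. Cell line, breed, sex of the dog and the table in which the authors processed each line cannot be told apart. In bulk RNA, a change in the share of cells that carry a transcript and a change in its amount per cell cannot be told apart either.

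Cells use glucose for glycolysis, for the pentose phosphate pathway and for the sugars added to proteins in the endoplasmic reticulum. When glucose is withdrawn, cells can shift to mitochondrial oxidation of glutamine and fatty acids, and unfolded proteins or a shortage of amino acids can raise the transcription factor ATF4 and its target genes. The files give identifiers without gene names, and 0 identifiers matched the reference gene table, so the names and functions of the 89 genes are not given here. Each is described by its rank in D in HU-HSA-2, and 2 are given by identifier.

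Totals of expected counts, the estimated reads per gene, lay between 10406166 and 13405159 per library. Of the endothelial markers, PECAM1 was at 998 to 1135 TPM in HU-HSA-2 and 330 to 441 TPM in HU-HSA-3, KDR at 57.8 to 76.7 TPM and 29.1 to 45.9 TPM, and VWF at 0.22 to 0.66 TPM and 0.05 to 0.36 TPM. VWF, a defining marker, was therefore close to 0 in both lines in these libraries. The study itself reports endothelial markers, vWF among them, in both lines by RT-qPCR and western blot. Markers of other cell types could not be matched to identifiers. The first library of HU-HSA-3 at 0 mM stood apart from the other libraries of its group: it held the lowest TPM of the 3 at 0 mM in 62.0% of the 9916 genes with a mean TPM of at least 2 in both lines, and in 58 of the 89 genes (65.2%). The main results in HU-HSA-3 are given with and without it.

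The criteria narrowed the genes in steps. D reached 0.5 in HU-HSA-2 in 222 of the 9916 genes, and the libraries did not overlap in 178 of these (0 mM lay above 25 mM without overlap in 12.7% of the 9916 genes). Among the 178, D in HU-HSA-3 lay inside the window in 89 genes, at or above 0.2 in 57 genes and at or below -0.2 in 32 genes. D in HU-HSA-3 reached 0.5 in 21 of the 178 and was at or below -0.5 in 9. The window therefore cut through a continuous range of values. A further 30 of the 178 genes lay outside the window but within 0.3 of 0. At the edges, D in HU-HSA-2 was 0.50 in the lowest gene inside and 0.4997 in the highest gene outside. At the upper edge of the window, D in HU-HSA-3 was 0.1997 in the last gene inside and 0.2007 in the first outside, and at the lower edge these values were -0.19 and -0.21. The lower of the mean TPM values was 2.17 in the gene nearest the floor from above and 1.81 in the gene nearest from below. The mirror rule, with the lines exchanged, found 73 genes, and 20 genes were raised in both lines by the same criteria for HU-HSA-2 applied to each.

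**Figure D1:**
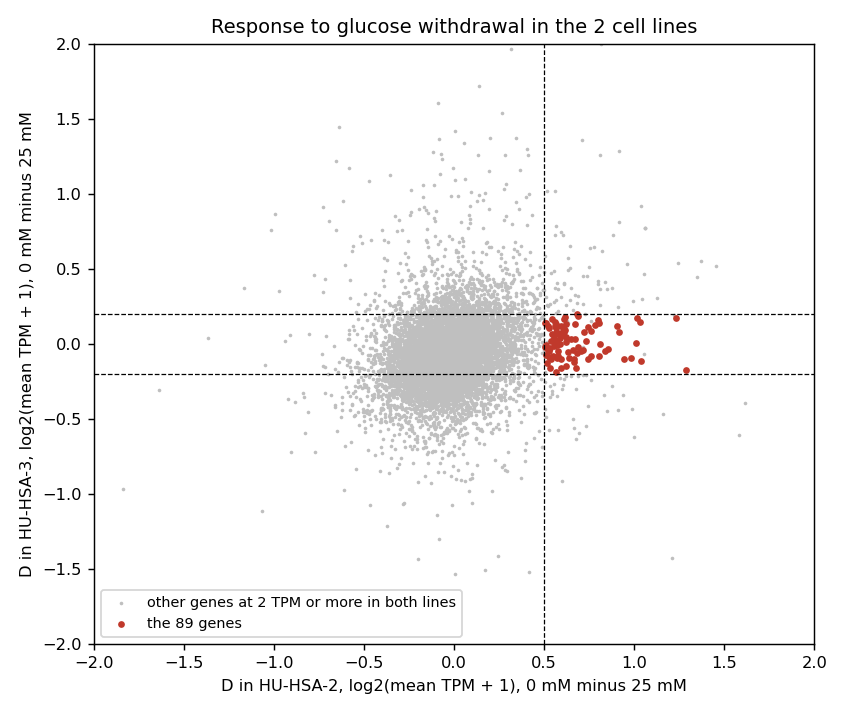
D in HU-HSA-2 (x axis) against D in HU-HSA-3 (y axis), both in log2 units of mean TPM + 1, for the genes with a mean TPM of at least 2 in both lines. Red points are the 89 genes, which fill the box right of 0.5 and between -0.2 and 0.2 (dashed lines), grey points are the other genes, and 32 genes lie outside the axes.

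Among the 89 genes, D in HU-HSA-2 ran from 0.50 to 1.29 with a median of 0.61, which is a median ratio of 1.53-fold in TPM + 1. D was under 0.6 in 41 genes, at least 0.75 in 19 and at least 1 in 6, so that most were raised modestly. Over the 9916 genes the median of D was -0.03 for HU-HSA-2, against -0.08 for HU-HSA-3. The gap between the groups of HU-HSA-2, as the lowest TPM at 0 mM over the highest at 25 mM, was 1.02-fold at its smallest, 1.37-fold at the median and 2.12-fold at its largest. D in HU-HSA-3 ran from -0.19 to 0.20 with a median of 0.01, and was above 0 in 49 genes and below 0 in 40.

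The summed level of the genes shows the same pattern by library. In HU-HSA-2 they took 0.762%, 0.809% and 0.772% of the library's TPM at 0 mM. At 25 mM in HU-HSA-2 they took 0.487%, 0.483% and 0.484%. In HU-HSA-3 they took 0.622%, 0.672% and 0.694% at 0 mM, and 0.646%, 0.673% and 0.625% at 25 mM. All HU-HSA-3 libraries thus lay between both groups of HU-HSA-2, and the groups of HU-HSA-3 overlapped. The mean log2(TPM + 1) over the genes was 4.52 in the first HU-HSA-3 library at 0 mM, against 4.68 and 4.76 in the other libraries of that group and 4.63 to 4.67 at 25 mM. The first library was the lowest of all 6 in HU-HSA-3.

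**Figure D2:**
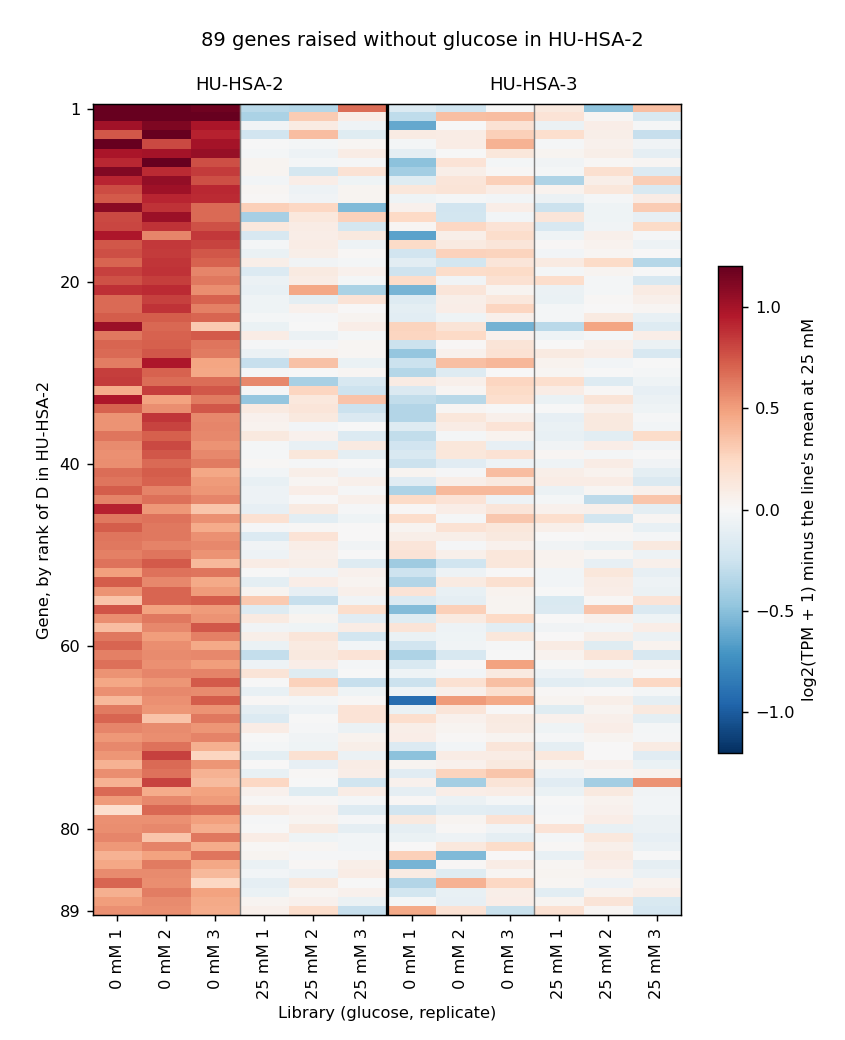
Each row is 1 of the 89 genes, ordered by D in HU-HSA-2, and each column 1 of the 12 libraries; colour is log2(TPM + 1) minus the mean of the same line's libraries at 25 mM. The 3 left columns (HU-HSA-2 at 0 mM) are red in every row by the rule, and in HU-HSA-3 the first library at 0 mM holds many of the blue cells, being the lowest of its group in 58 of 89 genes.

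Of the 6 genes with D of at least 1, the genes ranked 2 and 3 are given by identifier, as those with the largest D among genes with a mean of at least 10 TPM in HU-HSA-2 and whole counts in all libraries. ENSCAFG00000015002, ranked 2, was at 15.11, 15.72 and 15.62 TPM in HU-HSA-2 at 0 mM and at 4.29, 7.50 and 6.27 TPM at 25 mM. In HU-HSA-3 it was at 76.09, 121.23 and 121.84 TPM at 0 mM and at 105.14, 95.70 and 82.62 TPM at 25 mM. Every HU-HSA-3 library lay above every HU-HSA-2 library, and the first HU-HSA-3 library at 0 mM was the lowest of its line. The log2 fold change of ENSCAFG00000015002 from counts was 1.31 (SE 0.19) in HU-HSA-2. It was 0.23 (SE 0.14) for the other line, with a 95% interval from -0.09 to 0.54. Without the first HU-HSA-3 library at 0 mM it was 0.37 in HU-HSA-3.

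ENSCAFG00000002627, ranked 3, was at 32.59, 35.32 and 31.97 TPM in HU-HSA-2 at 0 mM and at 15.21, 16.90 and 15.08 TPM at 25 mM. In HU-HSA-3 it was at 27.08, 41.78 and 47.19 TPM at 0 mM and at 39.90, 44.42 and 41.34 TPM at 25 mM. The HU-HSA-2 groups were tight, while the first HU-HSA-3 library at 0 mM was again the lowest of its line and the other libraries of that group fell within or above the range at 25 mM. The log2 fold change of ENSCAFG00000002627 was 1.11 (SE 0.07) in HU-HSA-2. It was -0.05 (SE 0.14) for the other line, with an interval from -0.37 to 0.26. Without the first library at 0 mM the sign turned, and the log2 fold change of ENSCAFG00000002627 in HU-HSA-3 was 0.12 (SE 0.06) with an interval from -0.01 to 0.24.

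The other 4 genes with D of at least 1 differed widely in level. The gene ranked 1 was near the floor, at 5.45 to 7.12 TPM in HU-HSA-2 at 0 mM and 1.26 to 3.58 TPM at 25 mM, and rested on as few as 9 counts in a library. It was at 1.42 to 3.36 TPM over all HU-HSA-3 libraries. The genes ranked 4 and 5 were also low in HU-HSA-2, at 1.22 to 2.37 TPM and 1.54 to 1.63 TPM with glucose and 3.36 to 5.92 TPM and 3.46 to 5.01 TPM without it. In HU-HSA-3 the gene ranked 5 was at 31.47 to 43.68 TPM and the gene ranked 4 at 5.84 to 9.09 TPM. The gene ranked 6 was abundant, at 95.19 to 105.58 TPM in HU-HSA-2 with glucose and 196.79 to 205.74 TPM without it, and its HU-HSA-3 libraries lay between 240.65 and 285.21 TPM. In the genes ranked 2 to 6, every HU-HSA-3 library lay above every HU-HSA-2 library grown with glucose.

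**Figure D3:**
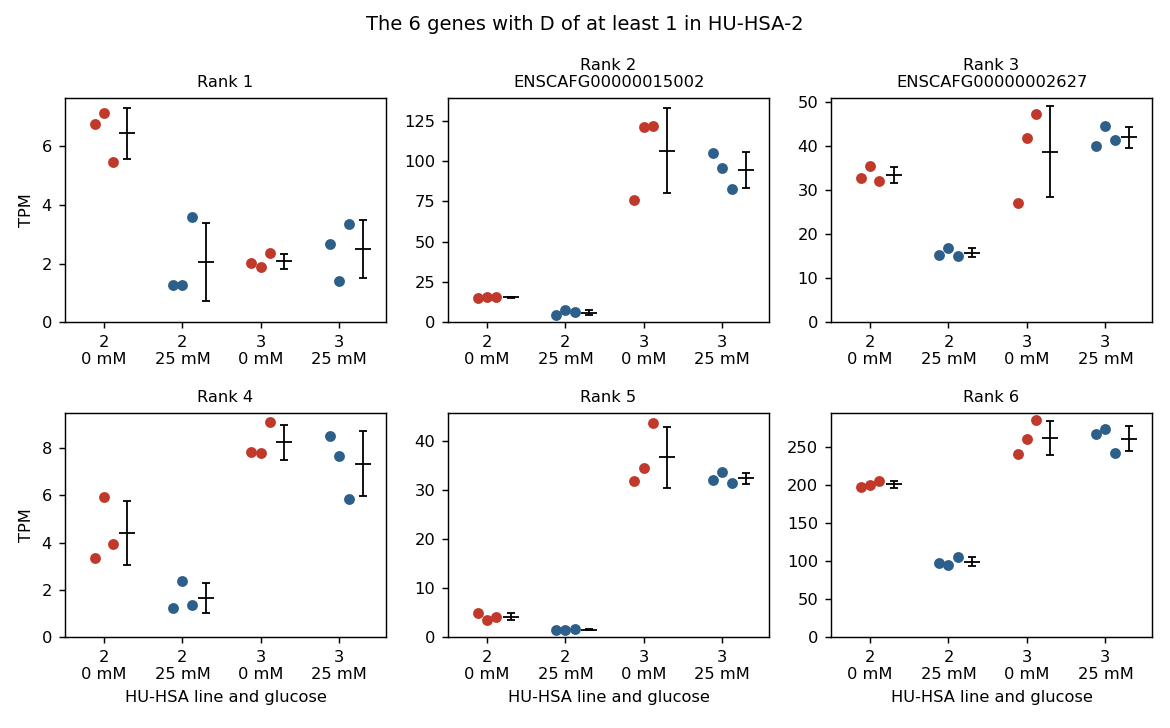
TPM per library (y axis, from 0, a separate scale per panel) of the 6 genes with D of at least 1 in HU-HSA-2, by cell line (2 or 3) and glucose; red points are libraries at 0 mM, blue points at 25 mM, and the black marks are mean and SD of 3 libraries. In ENSCAFG00000002627 the HU-HSA-2 libraries rise from 15.08 to 16.90 TPM at 25 mM to 31.97 to 35.32 TPM at 0 mM, while those of HU-HSA-3 overlap.

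Most of the transcript amount came from few genes. In HU-HSA-2, 13 of the 89 genes had a mean of at least 100 TPM, 45 lay between 10 and 100 TPM, and 31 were under 10 TPM (34.8%, against 18.6% of the 9916 genes). The 13 abundant genes held 73.5% to 75.3% of the members' summed TPM in each HU-HSA-2 library. D in HU-HSA-2 had a median of 0.69 in the abundant genes, 0.59 in those between, and 0.62 in those under 10 TPM. These medians depend on the rule, which cuts D at 0.5, and on its pseudocount. Among the 10 most abundant of the 89 genes in each line, 9 were shared.

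The most abundant gene in HU-HSA-2 was the gene ranked 26, singled out after its values were seen. It was at 1146.40, 1205.17 and 1228.92 TPM at 0 mM and at 786.56, 704.17 and 728.51 TPM at 25 mM in HU-HSA-2. In the other line it was at 287.49, 283.93 and 249.10 TPM at 0 mM and at 231.33, 235.57 and 253.44 TPM at 25 mM. Its groups in HU-HSA-3 overlapped by a single pair of libraries. The most abundant gene in HU-HSA-3 was the gene ranked 10, at 871.14, 1023.50 and 947.28 TPM at 0 mM and 484.82 to 518.37 TPM at 25 mM in HU-HSA-2. In the other line it was at 822.13 to 858.39 TPM at 0 mM and 680.36 to 849.97 TPM at 25 mM, so that the HU-HSA-3 libraries at either glucose level lay between the groups of HU-HSA-2. The genes ranked 77 and 82 followed in HU-HSA-2, at 420.41 to 433.82 TPM and 420.71 to 436.03 TPM with glucose. Without glucose they were at 610.26 to 640.52 TPM and 587.88 to 651.97 TPM. In HU-HSA-3 the gene ranked 77 was at 375.41 to 404.99 TPM and the gene ranked 82 at 403.45 to 493.44 TPM over both glucose levels.

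By the quasi-likelihood test of edgeR, adjusted by Benjamini-Hochberg over 12035 genes, 84 of the 89 genes were called higher at 0 mM in HU-HSA-2, where 7.45% of all genes tested were. The rule used this contrast, and nothing is read from the count. The 5 genes not past the threshold were ranked 12, 25, 31, 75 and 83, with adjusted p-values from 0.0554 to 0.337. The gene ranked 12 rested on as few as 4 counts in a library, and the gene ranked 25 on 8.32. The gene ranked 83 differed between units, with 83, 94 and 92 counts at 0 mM against 70, 77 and 59 counts at 25 mM but 20.44, 21.49 and 24.08 TPM against 15.37, 14.89 and 14.89 TPM. Its log2 fold change from counts was 0.24, while D was 0.50 or more by the rule. Expected counts were not whole in at least 1 library in 5 of the 89 genes (5.62%, against 5.81% of the 9916 genes), which means that reads shared with other genes were divided among them. Values of the genes ranked 25, 48, 50 and 81 are uncertain for that reason. In the gene ranked 22 the count was not whole in only 1 library, at 557.99.

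In HU-HSA-3, 0 of the 89 genes were called by edgeR with all 6 libraries, where 5.65% of 11089 genes were called in either direction. At an unadjusted p under 0.05 there were 9 of the 89 genes, where 22.1% of the 11089 genes were, and DESeq2's Wald test and limma on log2(TPM + 1) also called 0. This contrast was used by the rule too. The 95% intervals show what the 3 against 3 libraries leave possible. They held 0 in 80 genes and lay above 0 in 9 and below 0 in 0. Without the first library at 0 mM they lay above 0 in 26 genes and below 0 in 0, where 31.0% of 11191 genes had an unadjusted p under 0.05 in either direction. The median half-width of the interval was 0.25 on the log2 scale with all libraries and 0.18 without that library, and the upper bound was above 0.5 in 26 and 23 genes. In 8 genes the upper bound in HU-HSA-3 was above the estimate in HU-HSA-2.

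The scale moved the HU-HSA-3 values. With counts normalized by TMM, which centres the libraries on most genes, the log2 fold change in HU-HSA-3 was above 0 in 74 of the 89 genes with a median of 0.11. On the TPM scale, D was above 0 in 49 genes with a median of 0.01. The median of the 9916 genes was close to 0 on the TMM scale (0.0005) and -0.08 on the TPM scale, so that relative to the other genes the median of the 89 genes stood 0.11 higher on the first scale and 0.10 higher on the second. When D was computed from TMM-normalized CPM, 20 of the 89 genes were at or above 0.2 in HU-HSA-3, up to 0.30, and 0 were at or below -0.2. The rule favours both the higher median and this split. Its window was centred on 0 in TPM, above the median of the 9916 genes on that scale.

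A single library also moved them. Without the first HU-HSA-3 library at 0 mM, D rose in 66 of the 89 genes (it rose in 71.2% of the 9916 genes), its median went from 0.01 to 0.08, and the genes ranged from -0.24 to 0.48. Of the 89 genes, 76 stayed inside the window, 11 were at or above 0.2, 2 were at or below -0.2 and 0 reached 0.5. Without that library edgeR called 16 of the 89 genes higher at 0 mM in HU-HSA-3 and 0 lower (adjusted p under 0.05, Benjamini-Hochberg). Over the 11191 genes tested, 1095 (9.78%) were called higher and 932 lower. The log2 fold changes of the 16 genes were 0.17 to 0.56 with a median of 0.28, and in all 16 this was smaller than in HU-HSA-2. The rule favours the direction of these calls and their smaller size, since it used both responses. ENSCAFG00000015002 was 1 of the 16 (adjusted p = 0.00180 in edgeR). Without the third HU-HSA-3 library at 0 mM, 1 of the 89 genes was called, where 3.85% of 11199 genes were called in either direction.

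In some genes among the 16, picked after their values were seen, 1 library lowered the mean at 0 mM. In HU-HSA-3 the gene ranked 66 was at 12.07, 33.94 and 32.64 TPM at 0 mM and at 24.21, 24.78 and 21.85 TPM at 25 mM. The gene ranked 43 was at 4.77, 8.76 and 8.79 TPM at 0 mM and at 6.10, 6.56 and 6.73 TPM at 25 mM. The gene ranked 17 was at 83.98, 120.05 and 118.87 TPM at 0 mM and at 96.76, 100.37 and 99.21 TPM at 25 mM. In each of the 3 genes the first library at 0 mM lay below all libraries at 25 mM and the other libraries at 0 mM lay above them. The genes ranked 16 and 26, also among the 16, went the other way, with the first library the highest at 0 mM. Without it their log2 fold changes in HU-HSA-3 fell from 0.26 to 0.17 and from 0.30 to 0.20. Their SE fell too, from 0.09 to 0.05 and from 0.10 to 0.06. In HU-HSA-2 the gene ranked 66 was at 16.71 to 21.37 TPM at 0 mM and 12.29 to 12.62 TPM at 25 mM, and the gene ranked 43 at 3.67 to 4.33 TPM and 2.09 to 2.42 TPM.

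Other genes moved less when that library was left out. The gene ranked 24 was at 186.17, 195.85 and 211.94 TPM at 0 mM and at 200.37, 218.31 and 191.27 TPM at 25 mM in HU-HSA-3, while its libraries in HU-HSA-2 were at 159.57, 159.50 and 155.79 TPM and at 94.60, 94.67 and 98.42 TPM. Its interval in HU-HSA-3 ran from -0.12 to 0.20 on the log2 scale, and from -0.07 to 0.15 without the first library at 0 mM. The gene ranked 40, whose level did not differ past the threshold between the lines (log2 difference 0.08, SE 0.04), was at 253.34, 277.04 and 266.37 TPM without glucose and at 174.17, 170.58 and 171.77 TPM with it in HU-HSA-2. Its HU-HSA-3 libraries were at 171.11, 187.02 and 196.63 TPM at 0 mM and at 198.43, 218.87 and 198.67 TPM at 25 mM, lower without glucose and with no overlap in TPM. From counts its log2 fold change in HU-HSA-3 was -0.06, with an interval from -0.21 to 0.08. D of the gene ranked 40 in HU-HSA-3 was -0.15 with all libraries and -0.10 without the first at 0 mM. Between the libraries of a group, the coefficient of variation of the 89 genes had a median of 8.12% in HU-HSA-2 at 0 mM and 7.44% at 25 mM. In HU-HSA-3 it was 12.4% at 0 mM and 6.77% at 25 mM, and the 9916 genes had 10.7% and 5.83% there.

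**Figure D4:**
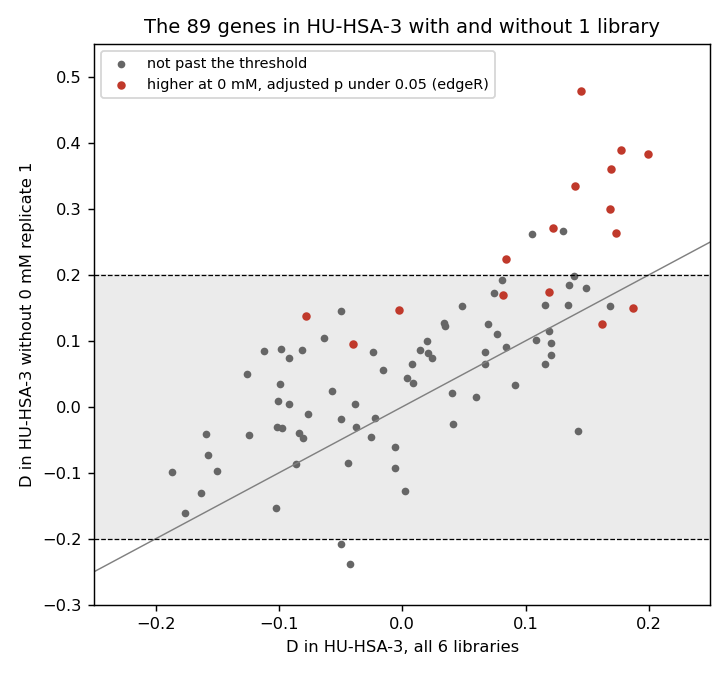
D in HU-HSA-3 with all 6 libraries (x axis) and without the first library at 0 mM (y axis), in log2 units of mean TPM + 1, for the 89 genes; the grey band is the window of the rule and the diagonal marks equal values. Red points are the 16 genes that edgeR called higher at 0 mM without that library, and 11 genes lie at or above the upper dashed line.

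On the TPM scale, the libraries of HU-HSA-3 did not overlap in 5 genes. The genes ranked 16, 48 and 50 were higher in all 3 libraries at 0 mM than in all 3 at 25 mM (8.12% of the 9916 genes were). The gene ranked 16 was at 317.90, 290.86 and 300.23 TPM at 0 mM and 272.82, 279.46 and 259.76 TPM at 25 mM, and the gene ranked 50 at 414.28, 385.13 and 404.20 TPM and 380.19, 374.33 and 352.50 TPM. The genes ranked 40 and 78 were higher in all 3 libraries at 25 mM (24.1% of the 9916 genes were). From counts, the interval in HU-HSA-3 held 0 for the genes ranked 40, 48 and 78. It lay above 0 for those ranked 16 and 50. The gene ranked 78 was at 64.18, 69.07 and 68.70 TPM at 0 mM and 74.75, 78.17 and 73.51 TPM at 25 mM. These differences were small against those of the same genes in HU-HSA-2.

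The difference between the responses, fitted as the interaction of cell line and glucose over all 12 libraries, was negative in all 89 genes, with a median of -0.59 and a range from -1.86 to -0.15 on the log2 scale. The rule, set on D in TPM, favours this sign. Without the second HU-HSA-3 library at 0 mM, 1 of the 89 genes was positive. With all libraries edgeR called the difference in 49 genes, where 2.31% of 12233 genes were called in the negative direction. Without the third HU-HSA-2 library at 25 mM 32 genes were called (1.52% of 12409 genes were), and without the second HU-HSA-3 library at 25 mM 31 were (1.49% of 12447). Without the first HU-HSA-3 library at 0 mM 53 were called (3.32% of 12444). In these settings the count moved with that over all genes. It did not without the third HU-HSA-3 library at 0 mM, where 47 of the 89 genes were called. There 343 of 12421 genes were called in that direction, against 282 of 12233 with all libraries. With all 12 libraries, for 40 of the 89 genes the larger response in HU-HSA-2 was not separated from the spread between libraries. Of the 19 genes with D of at least 0.75 in HU-HSA-2, 13 were called, and of the 41 genes with D under 0.6, 23 were. The difference was -1.09 (SE 0.25) in ENSCAFG00000015002 and -1.16 (SE 0.17) in ENSCAFG00000002627, and -0.94 and -0.99 without the first HU-HSA-3 library at 0 mM.

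The level of the genes in each line, averaged over both glucose levels, is a measure on which the rule set no direction. Its floor of 2 TPM and its pseudocount of 1, which pulls D of low genes toward 0, still tie membership to the level. By edgeR's quasi-likelihood test, 52 of the 89 genes (58.4%) were higher in HU-HSA-3 and 26 (29.2%) were higher in HU-HSA-2, and 11 were not past the threshold. Without the first HU-HSA-3 library at 0 mM, 51 and 26 were (39.9% and 42.6% of 12444 genes were). Among all 12233 genes tested, 39.8% were higher in HU-HSA-3 and 41.7% in HU-HSA-2. Among the 9869 tested genes that met the floor of the rule, the shares were 44.5% and 36.2%. The median log2 difference, HU-HSA-3 minus HU-HSA-2, was 0.53 in the 89 genes and 0.08 in those genes. On log2(TPM + 1) with limma the split was 46 to 30, where 29.4% and 49.0% of 12046 genes were higher in HU-HSA-3 and HU-HSA-2, and the median was 0.28, while the median of all genes tested moved from -0.02 to -0.19. The direction of the median was the same on both scales, and the excess over all genes was 0.56 on the first and 0.46 on the second.

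The size of the level difference was large in many of the genes. It was at least 1 on the log2 scale and past the threshold in 45 of the 89 genes, 28 higher in HU-HSA-3 (31.5%) and 17 higher in HU-HSA-2 (19.1%), against 8.51% and 9.66% of the 9869 tested genes above the floor. Its median size was 1.03 in the 89 genes and 0.47 in the 9869. The 89 genes held more genes under 10 TPM than the rest, and the part of this in the sizes was not tested.

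Genes with the largest level differences lay at both ends. The gene ranked 5 was 4.01 (SE 0.09) higher on the log2 scale in HU-HSA-3, followed by ENSCAFG00000015002 at 3.56 (SE 0.12, adjusted p = 4.49e-14 in edgeR). ENSCAFG00000002627 was 1.05 (SE 0.08) higher in HU-HSA-3 (adjusted p = 4.17e-09 in edgeR). At the other end, the gene ranked 9 was lower in HU-HSA-3, with a log2 difference of -5.18 (SE 0.11). It was at 119.61, 131.49 and 108.11 TPM at 0 mM and 61.68, 66.62 and 60.70 TPM at 25 mM in HU-HSA-2, and at 1.36 to 2.75 TPM over all HU-HSA-3 libraries. Its HU-HSA-3 values rested on 7 to 15 counts per library, and the interval of its log2 fold change there ran from -0.53 to 1.04. The log2 fold change of this gene in HU-HSA-2, 0.95, lay within that interval. The genes ranked 8, 38 and 44 were also far lower in HU-HSA-3, with level differences of -3.30, -2.97 and -3.47 and HU-HSA-3 values of 1.93 to 3.44 TPM, 3.19 to 4.40 TPM and 3.31 to 5.74 TPM.

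**Figure D5:**
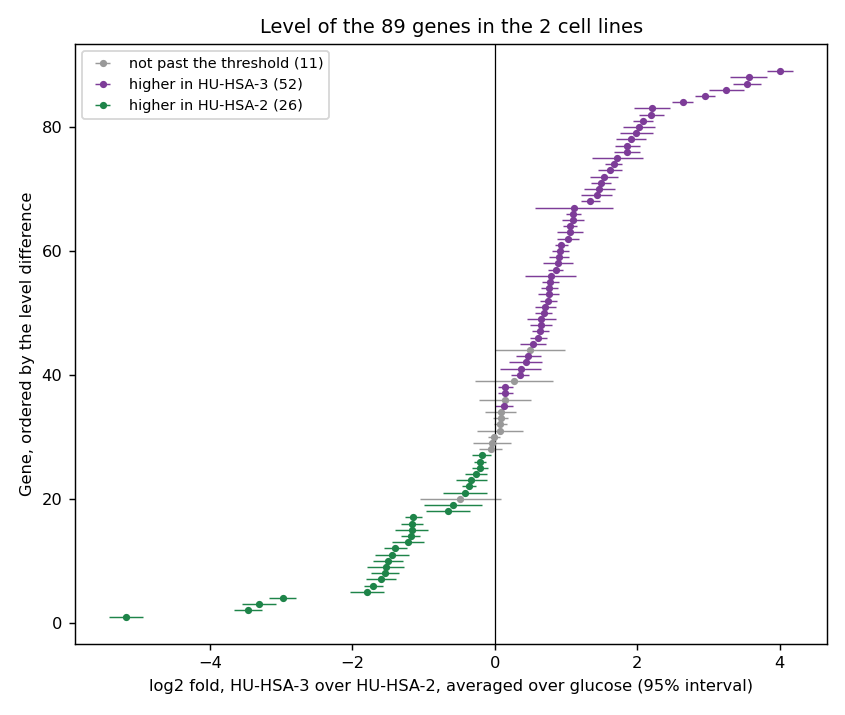
Log2 fold of HU-HSA-3 over HU-HSA-2, averaged over both glucose levels (x axis), with its 95% interval from edgeR, for the 89 genes ordered by this value (y axis). Purple genes (52) were higher in HU-HSA-3, green genes (26) higher in HU-HSA-2, and grey genes (11) did not pass the threshold; the extremes lie at 4.01 and -5.18.

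The genes were also divided by abundance in HU-HSA-2. Of the 13 genes at 100 TPM or more, 8 were higher in HU-HSA-3, 3 higher in HU-HSA-2 and 2 were not past the threshold, where 48.0% and 37.6% of the tested genes of that abundance above the floor were higher in each line. Of the 45 genes between 10 and 100 TPM, 25 were higher in HU-HSA-3 and 17 in HU-HSA-2, where 43.3% and 38.7% of such genes were. Of the 31 genes under 10 TPM, 19 were higher in HU-HSA-3 and 6 in HU-HSA-2, where 45.6% and 26.0% were. Dividing genes by their level in HU-HSA-2 itself bears on these shares. The median log2 fold change in HU-HSA-2 was 0.74 in the 52 genes higher in HU-HSA-3 and 0.67 in the 26 genes higher in HU-HSA-2.

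Set side by side by glucose level, the median of the 89 genes was higher in HU-HSA-3 with glucose and nearly equal in the lines without it. At 25 mM, 53 of the 89 genes were higher in all 3 HU-HSA-3 libraries than in all 3 of HU-HSA-2 (33.7% of the 9916 genes were), and 22 were lower (44.5% were). At 0 mM, 32 genes were higher in HU-HSA-3 (26.0% were) and 38 were lower (42.3% were). The median of HU-HSA-3 minus HU-HSA-2 in log2(mean TPM + 1) was 0.62 at 25 mM and 0.02 at 0 mM, where the 9916 genes had medians of -0.09 and -0.13. Most of this change with glucose follows from the rule, which took genes that moved in HU-HSA-2 and little in HU-HSA-3. Over both glucose levels together, all 6 HU-HSA-3 libraries lay above all 6 of HU-HSA-2 in 31 genes (20.7% of the 9916 genes) and below them in 20 genes (34.0%). In single genes the lines did not draw together at 0 mM to the same degree, and the median size of the gap was 0.96 at 25 mM and 0.75 at 0 mM.

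The level was also read in the groups of genes most like these. The 73 genes raised in HU-HSA-3 alone had 27 genes higher in HU-HSA-3 and 28 higher in HU-HSA-2, with a median level difference of -0.04, against 52, 26 and 0.53 in the 89 genes. Of the 20 genes raised in both lines, 19 could be tested, and 8 were higher in HU-HSA-3 and 9 in HU-HSA-2. The 3 groups of genes were chosen on responses in the same libraries, and the difference between them in level was not tested. The 7 stress-response genes that the study lists with identifiers, among them ATF4 and its targets, had D between -0.70 and 0.42 in HU-HSA-2, against values between 0.82 and 4.03 in the other line. These values hold for 48 h without glucose only. By RT-qPCR over time, the study reports that stress-response genes rose in HU-HSA-2 too, with an early peak after glucose was withdrawn. An earlier rise was not tested here, since no library was taken at an earlier time.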

How the data were processed

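mRNA was sequenced in 12 libraries, 6 from each cell line. The authors aligned the reads with STAR, on the genome build CanFam3.1, and used RSEM for quantification (versions, annotation release and strand setting not given in the sources used here). Expected counts without normalization and TPM values were deposited in a separate table per line. Of the expected counts, 97.7% were whole, and all were rounded. In R 4.3.3, edgeR 4.0.16 (filterByExpr, TMM, quasi-likelihood test, Benjamini-Hochberg adjustment, threshold 0.05) was fitted to the 6 libraries of each line and to all 12 for the difference between responses and the level, and tried on simulated data. Intervals are 95%. In 12 replicate pairs, 0 were identical, and their chi-square over degrees of freedom was 2.53 to 21.5. The genes, lists and tests were chosen with earlier results of these data known. The 2 identifiers printed have the largest D among genes with a mean of at least 10 TPM in HU-HSA-2 and whole counts, and other genes are given by rank. Alternatives were other normalizations, filters, pseudocounts and windows, DESeq2 1.42.0, limma 3.58.1, a replicate block and each library left out. The tables pair no identifiers with names (0 matched UU_Cfam_GSD_1.0). Names of 18 genes came from the study's primer list. The planned functional gene lists were therefore not counted, except the 7 stress-response genes and 3 endothelial markers, and sequences were not analysed here.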

Additional observations from a re-analysis of the deposited data

Results flagged for a closer look

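The response to glucose withdrawal differed between the cell lines, by the interaction test, in 49 of the 89 genes, all lower in HU-HSA-3 (2.31% of 12233 genes were). The count was 32 without the third HU-HSA-2 library at 25 mM (1.52% of all genes tested) and 31 without the second HU-HSA-3 library at 25 mM (1.49%). The difference was -1.09 on the log2 scale in ENSCAFG00000015002 and -1.16 in ENSCAFG00000002627. The first was not past the threshold without the first HU-HSA-2 library at 0 mM (adjusted p = 0.0514 in edgeR) or at 25 mM (adjusted p = 0.0614 in edgeR). The genes were chosen for unequal responses, so these values describe the choice and are no independent result. No outlier test was run on the groups, which hold 3 libraries each.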

How the results depend on the processing

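The rule found 84 to 117 genes when each library was left out, 52 with a window of 0.1, and 63 to 119 under the other alternatives. With TMM-normalized CPM in place of TPM it found 94 genes, 67 of them among the 89. After seeing the data, D was also centred on the median of the genes above the floor, which gave 89 genes, 66 of them among the first 89. The count of genes called higher in HU-HSA-2 was 75 to 81 with a library left out. In HU-HSA-3 it was 0 to 16 with a library left out and 0 under the other alternatives. The count called for the difference was 31 to 53 with a library left out and 38 to 60 otherwise. For ENSCAFG00000015002 the difference was no longer past the threshold without the first HU-HSA-2 library at 0 mM (adjusted p = 0.0514 in edgeR) or at 25 mM (adjusted p = 0.0614). The count called for level was 76 to 79 with a library left out and 73 to 77 otherwise, with 50 to 52 and 26 to 27 genes higher in HU-HSA-3 and HU-HSA-2 when a library was left out. With the replicate block the counts were 83 (HU-HSA-2), 0 (HU-HSA-3), 41 (difference) and 77 (level), and no call of the 2 identified genes changed. The numbers did not pair the samples, since deviations of same-numbered libraries had correlations of -0.13 to 0.22 in HU-HSA-2, and of 0.05 to 0.14 in the other line. Of the alternative counts, 5 were marked as moved, and apart from the narrower window the cause was not tested. They moved by over 1.5 times or, for the calls in HU-HSA-3, from 0 to 16 and from 0 to 1. Low counts limit some of the genes under 10 TPM, and 3 libraries per group from 1 dog per line limit all 89 genes.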
